A study of Rattus norvegicus with 13 samples.

Results

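The windows described here are stretches of 1000 bases of the rat genome with a high DNA methylation signal in sperm and a low one in morulae made from such sperm. They were chosen by their level: a mean of at least 0.8 CPM (counts per 1000000 counts of the library) over the 7 sperm libraries, and a mean of at most 0.25 CPM over the 6 morula libraries. Only chromosomes 1 to 20 were used, and bins of 100 kb were left out where the summed morula mean was at most 0.6 times the summed sperm mean. The sperm mean is called S and the morula mean M below. Of 2782040 windows in all, 2618741 lay on chromosomes 1 to 20, and 254684 of these (9.73%) had an S of at least 0.8. Among the latter 2989 also had an M of at most 0.25, 512 of them lay in bins left out, and 2477 remained. These members were 0.0946% of the windows of chromosomes 1 to 20 and 0.973% of those of high sperm signal. The other 252207 windows of high sperm signal serve as the comparison.

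The signal comes from methylated DNA immunoprecipitation and sequencing (MeDIP-seq). An antibody against 5-methylcytosine pulls down DNA fragments, so a window gains reads both from the number of its CpG sites and from how many of them carry methyl groups. Sperm DNA of mammals is highly methylated over most of the genome. After fertilisation both parental genomes lose much of that methylation before implantation, by oxidation of 5-methylcytosine through TET enzymes and by dilution as the DNA replicates, while imprinting control regions and some repeats keep it. The morula is the compact ball of cells before the blastocyst, and falls within this period. A morula also holds the genome of the egg, which a sperm library lacks, and a window's signal counts both. CPM is a share of each library's reads, so a low value is low relative to the rest of that library, and absolute methylation was not measured.

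All animals were outbred Hsd:Sprague Dawley rats. Gestating females of generation F0 were injected intraperitoneally on embryonic days 8 to 14 with the insecticide DDT or with its vehicle DMSO, and no later generation was treated. Sperm came from the cauda epididymis of males of generation F3 of either lineage, in a colony aged to 1 year, and morulae were cultured after single sperm heads had been injected into eggs of superovulated females (ICSI), for which no lineage is given. There were 3 libraries of control sperm, 4 of DDT sperm and 3 each of control and DDT morulae, the last 2 groups made from pools of embryos. No label says that replicates came from separate animals, so p-values measure the spread between these samples.

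Libraries held 30386626 to 193750804 counts. Control morula libraries (48923904 to 65864303 counts) were deeper than DDT morula libraries (37842198 to 40787673). The shallowest libraries, control sperm replicate 3 and DDT sperm replicate 4 (30386626 and 33684143 counts), differed from the rest of the sperm libraries. No count fell in 13.25% and 11.87% of their windows, where this share was 4.97% to 6.35% in each of the other 11. They are called the shallow pair below, and the other sperm libraries the 5 deep ones (104860839 to 193750804 counts). A limit of 3 counts corresponded to 0.0155 CPM in the deepest and 0.0987 CPM in the shallowest library, and covers counting error only. The counts hold no marker that could check the labelled tissue. Genes and sequence of the windows were not analysed here, so windows are named by position in Rnor_6.0.

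The members sat just past the thresholds that chose them. Their S ranged from 0.8 to 1.48 CPM with a median of 0.876, and their M from 0.117 to 0.25 CPM with a median of 0.232. The ratio of S to M ranged from 3.2 to 7.91 with a median of 3.91, and was at least 4 in 1095 members and at least 6 in 27. S reached 1.0 in 409 members and 1.2 in 50, while M was at most 0.2 in 284 and at most 0.15 in 12. Members therefore form the edge of a continuous range of windows rather than a group with a gap around it. The 3 members nearest the S threshold had 0.80004 to 0.80005 CPM and the 3 nearest windows outside it 0.79985 to 0.79998. At the M threshold the nearest members had 0.24997 to 0.24999 CPM and the nearest windows outside 0.25002 to 0.25004. The bin ratio was 0.6002 to 0.6003 in the nearest members and 0.5996 to 0.5997 in the nearest windows left out. The 512 windows in bins left out lay in 340 bins and had much the same levels, with median S of 0.895 and median M of 0.231 CPM. Of the windows of high sperm signal, 2.94% met the M threshold inside the bins left out and 1.04% outside them.

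Over the members, the median signal was 0.243, 0.255 and 0.225 CPM in control morula replicates 1 to 3 and 0.185, 0.221 and 0.2 CPM in DDT morula replicates 1 to 3. It was 0.788, 0.929 and 1.22 CPM in control sperm replicates 1 to 3 and 0.813, 0.753, 0.646 and 1.13 CPM in DDT sperm replicates 1 to 4. Every morula library thus lay below every sperm library, the highest sperm medians belonged to the shallow pair, and the DDT morula medians were the lowest. Averaged over libraries, the median was 0.221 ± 0.026 CPM in morulae (SD, n = 6) and 0.896 ± 0.208 in sperm (SD, n = 7), or 0.786 ± 0.102 in the 5 deep sperm libraries. The other windows of high sperm signal had 0.608 ± 0.0123 CPM in morulae and 1.1 ± 0.107 in sperm, while all windows of chromosomes 1 to 20 had 0.287 ± 0.0121 and 0.243 ± 0.0391. The rule itself placed members below the typical window of the genome in morulae and above it in sperm. In morulae the gap was small. The lower quartile of M over all windows of chromosomes 1 to 20 was 0.223 CPM, below the members' median M of 0.232 CPM. Counts behind these levels were low in morulae: 38 to 81 counts per member summed over the 6 libraries (median 69), against 369 to 1136 (median 634) over the 7 sperm libraries. A morula library without any count occurred in 34 members, and a sperm library without a count in 0.

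**Figure D1:**
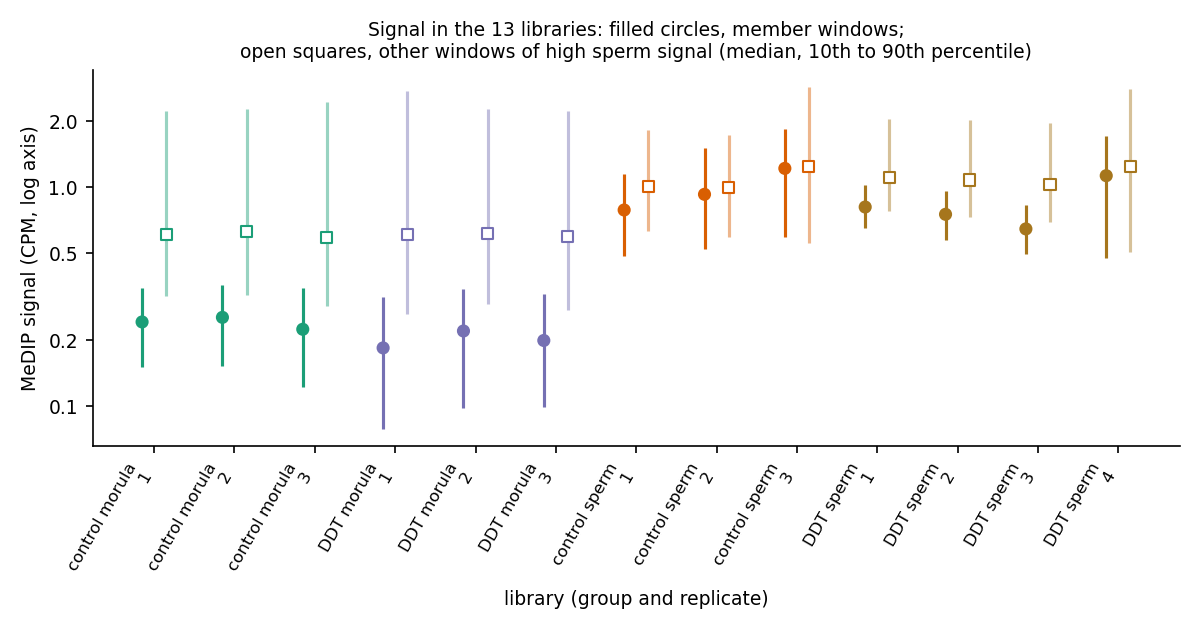
MeDIP signal (CPM, log axis) in each of the 13 libraries, for the 2477 members (filled circles) and the 252207 other windows of high sperm signal (open squares); symbols are medians over windows and lines run from the 10th to the 90th percentile. The member medians lie between 0.185 and 0.255 CPM in the 6 morula libraries and between 0.646 and 1.22 CPM in the 7 sperm libraries.

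In 2314 members (93.4%) all 6 morula libraries were below all 7 sperm libraries, where 5.61% of all windows of chromosomes 1 to 20 and 31.7% of the other windows of high sperm signal were. Without the shallow pair the count was 2427 (98.0%, against 12.9% of all windows). Since the rule used the difference between morulae and sperm, these shares describe the members and are no test of them.

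The lowest ratio of M to S belonged to chr11:24321001-24322000. It had 0.213, 0.238 and 0.123 CPM in control morulae and 0.0529, 0.0245 and 0.0499 in DDT morulae, against 0.539, 0.748 and 2.2 in control sperm and 0.527, 0.639, 0.351 and 1.45 in DDT sperm. The DDT morula values rest on 2, 1 and 2 counts, and the 2 highest sperm values are those of the shallow pair. Its S was 0.923 ± 0.667 CPM (SD, n = 7), and 0.561 CPM over the 5 deep libraries.

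At chr13:25868001-25869000 the morula values were more even, at 0.213, 0.255 and 0.307 CPM in controls and 0.211, 0.196 and 0.15 in the DDT lineage. Sperm had 0.933, 1.57 and 2.57 CPM in controls and 1.25, 1.32, 0.896 and 1.75 in the DDT lineage. No morula library overlapped a sperm library, and the 5 deep sperm libraries alone gave an S of 1.19 CPM.

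At chr1:20047001-20048000 the deep sperm libraries had the higher mean, 1.17 CPM against 0.666 CPM in the shallow pair. Control sperm had 1.36, 1.84 and 0.559 CPM there and DDT sperm 0.983, 0.915, 0.724 and 0.772, with morulae at 0.258, 0.136 and 0.0613 CPM in controls and 0.238, 0.147 and 0.0999 in the DDT lineage. The lowest sperm value was that of control replicate 3, while DDT replicate 4 of the shallow pair lay above the deep DDT replicate 3. At chr7:138644001-138645000 control sperm had 1.52, 2.15 and 0.691 CPM and DDT sperm 0.992, 1.17, 0.802 and 0.445 CPM. The shallow pair held the 2 lowest sperm values of that window.

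The other 6 of the 10 members of lowest M to S ratio were chr19:11422001-11423000, chr10:29100001-29101000, chr10:86859001-86860000, chr9:98567001-98568000, chr16:54485001-54486000 and chr14:105193001-105194000. Their S ranged from 1.01 to 1.35 CPM and their M from 0.15 to 0.198 CPM, with ratios of S to M from 6.44 to 7.09. In each of these 6 both libraries of the shallow pair exceeded all 5 deep sperm libraries.

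That pattern held in much of the set. Both libraries of the shallow pair were above all 5 deep sperm libraries in 1383 members (55.8%), against 47.9% of the other windows of high sperm signal and 16.6% of all windows. Both were below all 5 in 350 members (14.1%), against 22.1% and 30.4%, and neither held in 744 (30.0%). In the first kind the median was 1.48 and 1.43 CPM in the shallow pair and 0.615 to 0.777 CPM in the deep libraries. In the second kind it was 0.559 and 0.505 CPM in the shallow pair and 0.771 to 1.39 CPM in the deep libraries. The median morula signal was much the same in both kinds, at 0.185 to 0.243 and 0.185 to 0.272 CPM over the 6 libraries. Windows adjoining the first kind had a median sperm signal of 0.415 CPM and those adjoining the second 0.564 CPM, with morulae at 0.293 and 0.299 CPM.

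Whether a window was a member depended strongly on the shallow pair. The 5 deep libraries alone reached a mean of 0.8 CPM in 1223 of the 2477 members, although their mean was at least 2 times M in 2464 and at least 3 times M in 1836. The rule applied without the shallow pair gave 2384 windows, of which 1092 were members (44.1% of the members and 45.8% of those windows). Across the members, CPM correlated between the shallow pair at r = 0.78, among deep libraries at 0.31 to 0.88, and between shallow and deep libraries at -0.73 to -0.11. In the other windows of high sperm signal the corresponding values were 0.94, 0.68 to 0.96 and 0.44 to 0.72. A fixed lower limit on the mean of all 7 libraries makes high values in some go with lower values in others, so the negative values describe the selected set, and windows share libraries and depth.

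**Figure D2:**
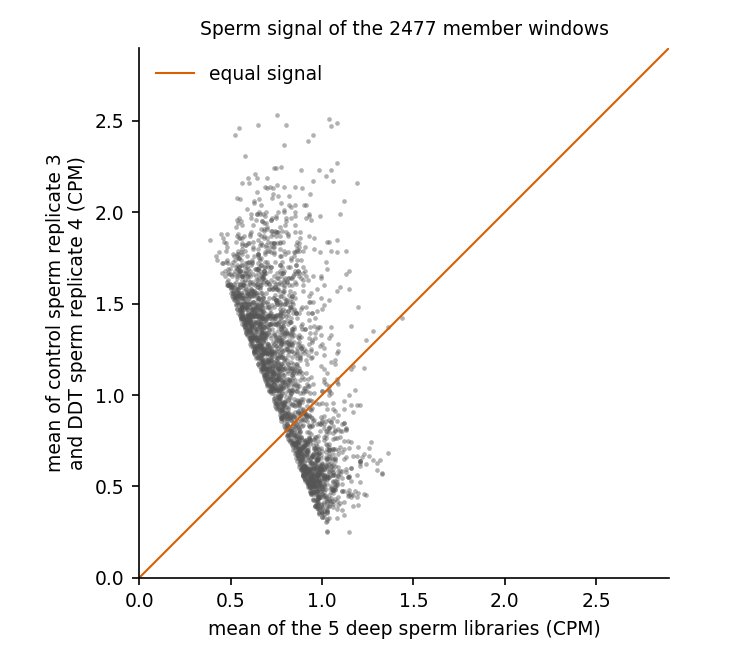
Sperm signal of each of the 2477 members (points): the mean of the 5 deep sperm libraries on the x axis against the mean of the shallow pair on the y axis, both in CPM, with the line of equal signal. The straight lower left edge of the cloud is the limit of 0.8 CPM on the mean of all 7 libraries, and points lie both well above and below the line.

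To measure the difference between morulae and sperm in libraries that had not chosen the windows, the rule was applied to the libraries of 1 lineage and the windows were tested in the other. In the control lineage 5803 windows met it, 1246 of them members. In the DDT lineage, edgeR's quasi-likelihood test (Benjamini-Hochberg adjusted p under 0.05 over all tested windows) called 5285 of them (91.1%) lower in morulae and 0 higher. Of all tested windows the same test called 16.6% lower and 18.3% higher, and of the other windows of high control sperm signal 60.5% and 6.55%. The morula mean was below the sperm mean in 5802 of the 5803. It was so in 42.1% of all windows and 76.2% of the other windows of high control sperm signal. All 3 DDT morula libraries were below all 4 DDT sperm libraries in 4487 (77.3%, against 12.9% and 50.4%). The median log2 difference, morula over sperm, was -1.47.

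Levels moved towards the rest of the genome in the libraries not used. Over the 5803 windows, the median was 0.228, 0.221 and 0.204 CPM in the control morulae that chose them and 0.238, 0.27 and 0.275 CPM in DDT morulae. It was 0.836, 1.02 and 0.856 CPM in the control sperm that chose them and 0.733, 0.687, 0.6 and 0.683 CPM in DDT sperm. DDT sperm medians all lay below control sperm medians, and far above those of both morula groups. The DDT morula medians averaged 0.261 CPM, only slightly below the 0.286 CPM of all windows of chromosomes 1 to 20. Both thresholds were met again in the DDT lineage by 477 of the 5803. They were met there by 6129 of all 2618741 windows and 4195 of the 252092 other windows of high control sperm signal.

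In the opposite direction, 5132 windows met the rule in the DDT lineage, 1146 of them members. In the control lineage edgeR called 4072 (79.3%) lower in morulae and 0 higher, against 12.3% lower and 16.9% higher among all tested windows, and 35.3% and 3.13% among the other windows of high DDT sperm signal. The morula mean was below the sperm mean in 5130. It was so in 40.9% of all windows and 74.0% of the other windows of high DDT sperm signal. All control morula libraries were below all control sperm libraries in 4267 (83.1%, against 12.6% and 41.3%). The median log2 difference was -1.51. The count of calls fell to 2230, 2547 and 2538 without control morula replicate 1, 2 or 3, which leaves 2 morula libraries in the test. The share of all tested windows called lower fell as well, to 4.14%, 5.02% and 4.88%. Medians over these windows were 0.334, 0.34 and 0.327 CPM in control morulae and 0.725, 0.8 and 1.22 CPM in control sperm, the highest again in the shallow replicate 3. Over all windows of chromosomes 1 to 20 the control morula medians averaged 0.288 CPM. In the morulae not used, these windows thus lay above the genome's level and not below it. The DDT libraries that chose them had 0.211, 0.221 and 0.225 CPM in morulae and 0.867, 0.82, 0.724 and 1.28 CPM in sperm. Both thresholds were met again in the control lineage by 460 of the 5132. They were met there by 6903 of all 2618741 windows and 1482 of the 253974 other windows of high DDT sperm signal.

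The median of all tested windows was 0.09 on the log2 scale for control libraries and -0.01 for DDT libraries. Scaling by library size moved it to 0.18 and 0.11. The differences of -1.51 and -1.47 were far below these medians. The other windows of high sperm signal in the choosing lineage had medians of -0.72 in control libraries and -1.07 in DDT libraries. Part of the difference was thus shared by windows of high sperm signal in general. Both lineages met the rule in 445 windows (7.67% of the control list and 8.67% of the DDT list), all of them members. S and M limits met in both lineages are also met by the means over both, so this membership is largely set by the rule. Of the members, 1246 (50.3%) met the rule in the control lineage and 1146 (46.3%) in the DDT lineage, while 530 (21.4%) met it in neither and passed only through the means over both.

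**Figure D3:**
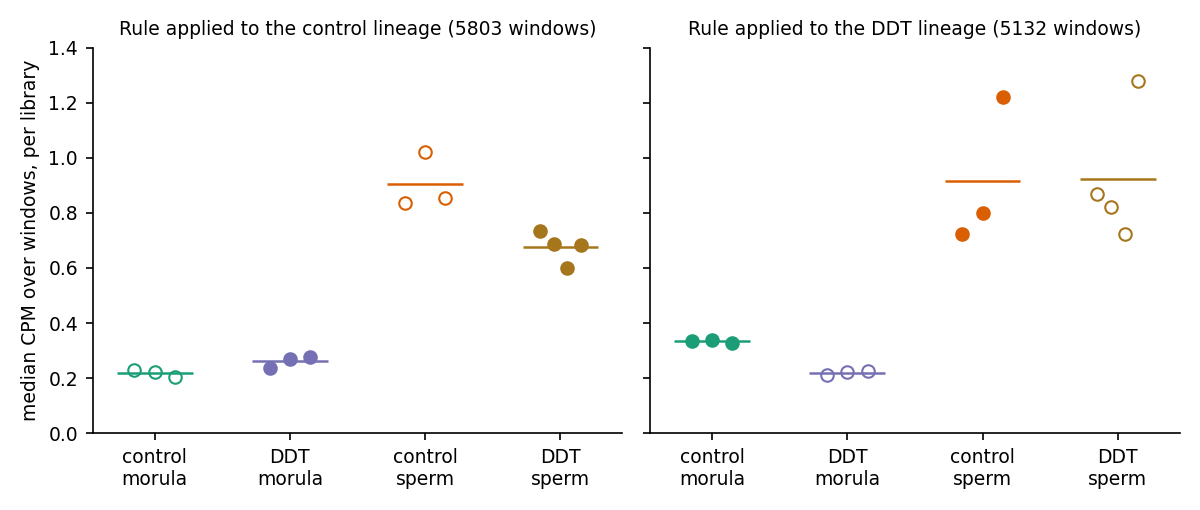
Median CPM over the windows that met the rule in the control lineage (left, 5803 windows) and in the DDT lineage (right, 5132 windows), 1 point per library, with a line at the mean of the library medians; open points are libraries that chose the windows and filled points are libraries that did not. In the libraries not used, the sperm points (0.6 to 0.733 CPM left, 0.725 to 1.22 CPM right) lie above the morula points (0.238 to 0.275 CPM left, 0.327 to 0.34 CPM right).

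Most members were single windows. Of the 2477, 2427 had no member next to them, and the other 50 formed 25 adjoining pairs (2.02% of members, Wilson 95% interval 1.53% to 2.65%, counting error only), with 0 longer runs. The median distance to the next member was 461 kb. They lay in 2226 of 26198 bins of 100 kb, 1996 of these with 1 member, 209 with 2 and 21 with 3. The pair of highest summed signal was chr5:9054001-9056000, where S was 1.43 and 1.17 CPM and M 0.233 and 0.189 CPM. Next came chr17:75243001-75245000, with S of 0.94 and 1.15 CPM and M of 0.202 and 0.215 CPM.

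The third pair, chr18:79439001-79441000, had its highest sperm signal in the shallow pair. DDT sperm had 0.813, 0.477, 0.927 and 2.97 CPM in its first window and 0.902, 0.477, 0.794 and 2.46 CPM in its second, the highest in the shallow replicate 4. Control sperm had 0.415, 0.341 and 1.42 CPM, and 0.339, 0.258 and 1.25 CPM, the highest in the shallow replicate 3. The deep libraries averaged 0.594 and 0.554 CPM. The pairs chr14:36119001-36121000 and chr10:94817001-94819000 had S of 0.9 to 1.03 CPM and M of 0.234 to 0.242 CPM.

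The sperm signal peaked at the member and the morula signal dipped there. Adjoining windows had a median S of 0.472 CPM and a median M of 0.295 CPM, and windows 10 to 20 kb away 0.357 and 0.301 CPM. The genome's medians were 0.26 and 0.291 CPM, so windows near members had more sperm signal than the genome and a morula signal near it. Sperm signal was also higher around the other windows of high sperm signal. At 1 kb their median S was 0.576 to 0.577 CPM and their median M 0.379 CPM, both above those beside members, and S was 0.315 CPM at 20 kb. M lay below both adjoining windows in 1581 members (63.8%), and S above both in 1858 (75.0%, against 70.7% of the other windows of high sperm signal). The values at the member itself were fixed by the rule.

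Members stood more alone in sperm than other windows of high sperm signal, whose median S was also higher (1.06 against 0.876 CPM). The shares below were not matched for S. An adjoining window also had an S of at least 0.8 in 832 members (33.6%), against 51.7% of the other windows, and both did in 90 (3.63%, against 16.7%). Where a neighbour did have high sperm signal, its morula signal was not as low: of 922 such neighbours 50 (5.42%) had an M of at most 0.25, and their median M was 0.402 CPM. Neighbours of the other windows had an M that low in 0.7% and a median M of 1.27 CPM.

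**Figure D4:**
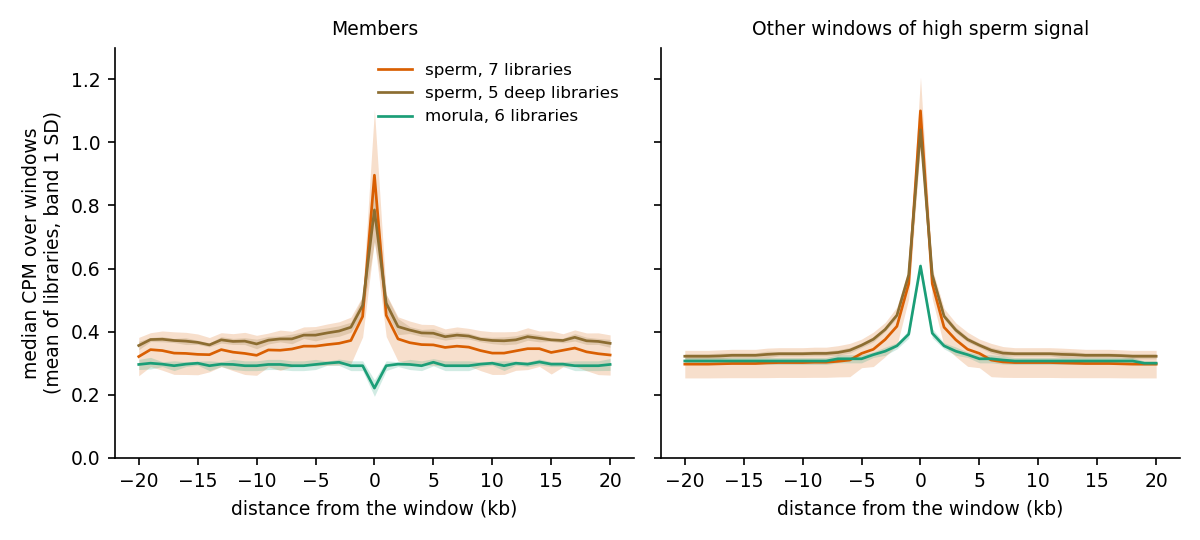
Median CPM over windows by distance from the member (left) or from the other windows of high sperm signal (right), in kb; lines are means of the library medians and bands 1 SD over 7 sperm, 5 deep sperm and 6 morula libraries. Around members the morula line stays near 0.3 CPM and dips at the centre to 0.221 CPM, while around the other windows it peaks at 0.608 CPM.

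Chromosomes 12, 20 and 19 held the most members for their length, with 16.7, 16.5 and 16.4 per 10000 windows against 9.46 over chromosomes 1 to 20. Chromosomes 2, 14 and 1 held the fewest, with 6.91, 7.53 and 8.06. The windows of high sperm signal were also denser on the former, at 14.8%, 12.2% and 12.6% of windows on chromosomes 12, 20 and 19 against 9.73% in all. As a share of those windows, members made up 1.36% on chromosome 20, 1.3% on 19, 1.17% on 10 and 1.13% on 12, against 0.973% in all and 0.769% on chromosome 2. Only 20 members (0.807%) lay within 2 Mb of a chromosome end, where 3.06% of all windows and 2.78% of those of high sperm signal lay. Outside the rule's chromosomes, 12 of 159971 windows of X and 2 of 3311 windows of Y met the same thresholds (6783 and 431 of these windows had high sperm signal); a sperm carries only X or Y.

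**Figure D5:**
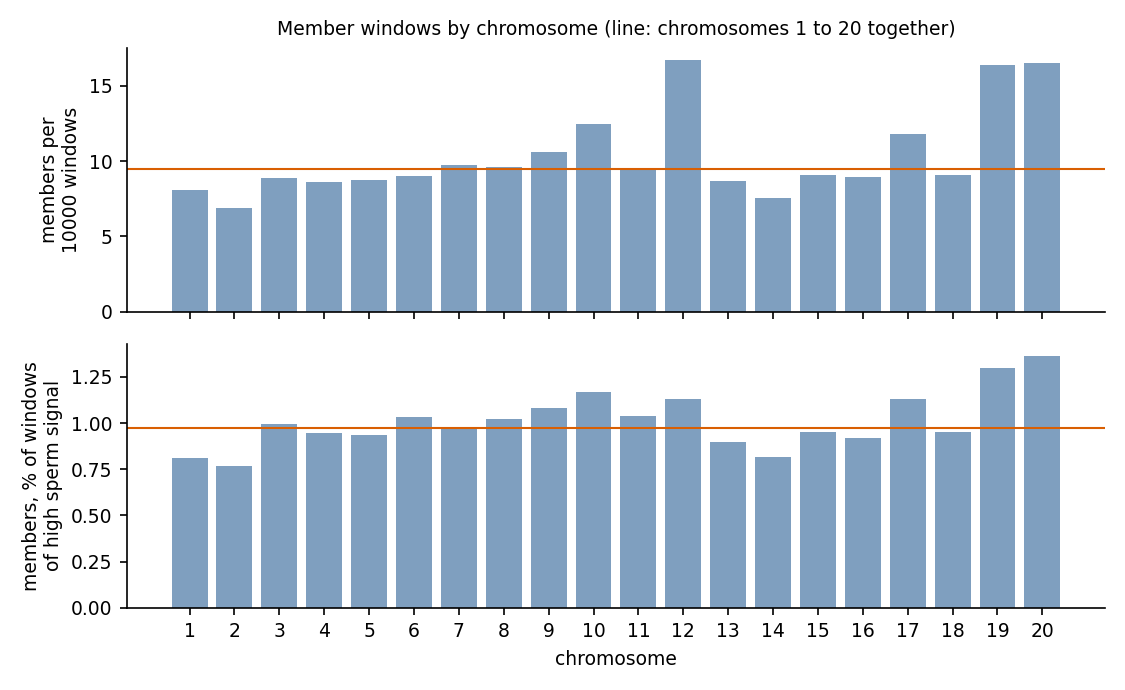
Members per 10000 windows (top) and members as a percentage of the windows of high sperm signal (bottom) for each of chromosomes 1 to 20; the lines mark all of them together, at 9.46 and 0.973%. Chromosomes 12, 19 and 20 stand highest in the upper panel, and chromosomes 20 and 19 in the lower.

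The members were compared between lineages in each tissue. The lineage of the father's ancestors, DDT or control, did not enter the rule, but the same library values chose the members. The part that this selection plays in the shares below was not tested. In sperm all 2477 members were tested and edgeR called 0 at an adjusted p under 0.05, as it did in all windows (0.0% of 2454365); the smallest adjusted p was 0.843. DESeq2 also called 0 members, and 17 of all windows. At an unadjusted p under 0.05, edgeR gave 3 members higher and 194 lower in the DDT lineage, 7.95% in all, where all tested windows gave 2.61% higher and 3.32% lower (5.92%). DESeq2 gave 3 and 139, for which no share of all windows is given here. The unadjusted counts moved with single libraries. Without control sperm replicate 2 edgeR gave 1 member higher and 19 lower, and without DDT sperm replicate 3 it gave 2 and 27. The lower shares were then 0.767% and 1.09%, below the 1.24% and 2.39% of all tested windows. Without control sperm replicate 1, DDT sperm replicate 1 or DDT sperm replicate 2, the lower members numbered 145, 119 and 106. Their shares were 5.85%, 4.8% and 4.28%, above the 2.3%, 2.3% and 2.49% of all tested windows. Leaving out control sperm replicate 3 gave 249 higher and 449 lower (10.1% and 18.1%, against 8.31% and 7.04% of all tested windows), and leaving out DDT sperm replicate 4 gave 3 and 330 (13.3% lower, against 4.27%). The DDT mean was lower in 1947 members (78.6%), against 43.6% of the other windows of high sperm signal and 52.5% of all windows. All 4 DDT libraries were below all 3 control libraries in 184 members (7.43%, background 3.7%) and above them in 3 (0.121%, background 1.93%). The median log2 difference, DDT over control, was -0.19 in members and -0.02 in all windows.

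Leaving out the shallow pair changed that count from 0 to 671 members (27.1%), 112 higher and 559 lower in the DDT lineage. Of all windows tested so, 6.4% were called higher and 4.02% lower (10.4%). The other windows of high sperm signal were called as often, also 27.1%, but mostly the opposite way, with 23.6% higher and 3.45% lower. Their median log2 difference was 0.20, where the members had -0.14. This fit sets 2 control against 3 DDT libraries. The median sperm level of the members was 0.853 CPM in those 2 and 0.74 CPM in those 3. The DDT mean over the deep libraries was lower in 1605 members (64.8%), against 54.9% of all windows. Among the 2384 windows chosen without the shallow pair it was lower in 2229 (93.5%). These shares move with the libraries that choose the windows, and the part that selection plays in them was not tested.

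The member of smallest unadjusted p among those lower in DDT sperm was chr1:263576001-263577000, with 1.08, 1.55 and 1.25 CPM in control sperm and 0.688, 0.734, 0.592 and 0.534 CPM in DDT sperm. The groups did not overlap, and the log2 difference was -0.98 (SE 0.28, edgeR adjusted p = 0.843). Without the shallow pair it was -0.93 with an edgeR adjusted p of 0.000154. At chr16:54532001-54533000 control sperm had 1.32, 1.55 and 0.79 CPM and DDT sperm 0.634, 0.753, 0.592 and 0.356 CPM, again without overlap. At chr11:79851001-79852000 the values were 1.26, 1.7 and 1.35 CPM against 0.902, 0.782, 0.639 and 0.564 CPM.

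In the opposite direction, chr8:52243001-52244000 had 0.311, 0.403 and 0.658 CPM in control sperm and 1.23, 0.401, 0.927 and 2.4 CPM in DDT sperm. Here DDT replicate 2 overlapped the controls, and the log2 difference was 1.55 (SE 0.54, edgeR adjusted p = 0.843). The controls did not overlap DDT sperm at chr7:116727001-116728000, with 0.511, 0.764 and 0.559 CPM against 1.11, 0.925, 1.05 and 0.831 CPM. At chr14:5254001-5255000, with 0.435, 0.578 and 0.856 CPM against 1.18, 0.868, 0.841 and 1.31 CPM, DDT replicate 3 lay below the highest control.

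In morulae edgeR likewise tested all 2477 members and called 0, with a smallest adjusted p of 0.887; over the genome 0 windows were called higher (0.0%) and 1 of 2568322 lower (3.89e-05%). DESeq2 called 0 members. This fit pooled the spread of all windows in full (infinite prior degrees of freedom), so each p rests on that common spread alone. At an unadjusted p under 0.05, edgeR gave 20 members higher and 144 lower in DDT morulae, 6.62% in all. It gave 2.48% and 2.42% (4.9%) of all tested windows. DESeq2 gave 9 and 67 members, again with no share of all windows given here. The DDT mean was lower in 1697 members (68.5%), against 49.7% of the other windows of high sperm signal and 49.5% of all windows. DDT libraries lay below all controls in 292 members (11.8%, background 5.4%) and above them in 54 (2.18%, background 4.19%). The median log2 difference was -0.20 in members and 0.01 in all windows. DDT morula libraries were also the shallower ones, with a median of 7 to 9 counts per member against 11 to 16 in control morulae, and the limit on M was set on an unweighted mean. The part of depth and selection in this lean was not tested.

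The smallest morula p among members belonged to chr13:55488001-55489000. Control morulae had 0.395, 0.221 and 0.388 CPM there and DDT morulae 0.0529, 0.0736 and 0.0499 CPM. The groups did not overlap, and the log2 difference was -2.43 (SE 0.61, edgeR adjusted p = 0.887), but the DDT values rest on 2, 3 and 2 counts. At chr11:69771001-69772000 control morulae had 0.334, 0.272 and 0.613 CPM and DDT morulae 0.0, 0.0245 and 0.25 CPM, from 0, 1 and 10 counts. At chr19:11730001-11731000 the values were 0.486, 0.306 and 0.388 CPM against 0.106, 0.123 and 0.0749 CPM, again without overlap.

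Higher in DDT morulae, chr18:31760001-31761000 had 0.0607, 0.102 and 0.184 CPM in controls and 0.317, 0.27 and 0.3 CPM in the DDT lineage. The log2 difference was 1.43 (SE 0.53, edgeR adjusted p = 0.998). The window of chr7:138644001-138645000 met above had 0.106, 0.051 and 0.102 CPM in control morulae and 0.159, 0.245 and 0.35 CPM in DDT morulae. At chr10:7166001-7167000 the values were 0.137, 0.102 and 0.143 CPM against 0.37, 0.245 and 0.3 CPM. The groups did not overlap in any of these 3 windows, and the highest DDT morula value in them was still below every sperm value of its window.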

How the data were processed

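MeDIP-seq was measured in 6 morula and 7 sperm libraries. Per the submitters' processing notes the build was Rnor_6.0 and the tools, given with no version, were Bowtie2, edgeR, FastQC, SAMtools and Trimmomatic. The authors deposited raw read counts per window of 1000 bases in 4 tables, and counts shared between tables were identical. They also deposited log2 fold changes and edgeR p-values with their adjustment; only the adjusted p was used, as an alternative. Not used were 26 columns of RPKM values.

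CPM was computed as counts over the library's total. DDT was compared with control in sperm and in morulae, and morulae with sperm within each lineage, with edgeR 4.0.16 in R 4.3.3 (quasi-likelihood test, TMM scaling, two-sided) on windows with at least 5 counts per library in total, with Benjamini-Hochberg adjustment over all tested windows and a threshold of 0.05. DESeq2 1.42.0 was an alternative. The fits were tested on simulated data. Prior degrees of freedom were infinite in the morula fit, 9.59 in the sperm fit, 15.3 for control libraries and 26.7 for DDT libraries. Standard errors were taken from the effect and its test.

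The members, lists and tests were chosen with earlier results of these data known, and no pattern already seen serves as independent support. Named windows were the 10 members of lowest M to S ratio (0 had an M at or under the counting limit of 3 counts), the 5 adjoining pairs of highest summed S, the 3 of smallest p per direction in each DDT comparison, and the 3 windows on either side of each threshold. The kinds of member by the shallow pair were defined after seeing the data. No genome or annotation of the build was used here, so CpG content, genes and the gene lists were not analysed.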

Additional observations from a re-analysis of the deposited data

Results flagged for a closer look

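In the windows named above and in the median over the members, the values of the 4 DDT sperm libraries were searched for a library far from the others, by the gap to its nearest neighbour over the whole range (Dixon's 95% limit for 4 libraries, 0.829). Of 32 such comparisons, 31 of them windows, 2 exceeded it. Among unselected values chance alone flags about 1 in 20. These windows were chosen partly by their sperm signal, so that rate need not hold here. DDT sperm replicate 4 was the farthest library in most of the comparisons. At chr10:29100001-29101000 DDT sperm replicate 4 had 2.11 CPM, against 1.02 to 1.11 CPM in the other 3. At chr18:31760001-31761000 it had 1.63 CPM, against 0.467 to 0.616 CPM. In both windows the library was 1 of the shallow pair, and the other, control sperm replicate 3, was the highest control, with 1.88 and 1.55 CPM.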

How the results depend on the processing

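The number of members followed the thresholds. It was 409 at a minimum S of 1.0 and 13481 at 0.6, 284 at a maximum M of 0.2 and 9996 at 0.3, and 4883 with TMM-scaled CPM, of which 1768 were members. With no bins left out it was 2989, without the shallow pair 2384, and without single libraries 2037 to 3278. The share of members adjoining another was 0.489% at a minimum S of 1.0, 0.0% at a maximum M of 0.2, and 2.23% and 2.6% with TMM-scaled CPM and without the shallow pair. In sperm, DDT against control called 671 members without the shallow pair, and 0 under each of the other 7 settings and without any single library. In morulae the count was 0 under all 7 settings and without any single library. Windows chosen in the control lineage were called lower in 4358 to 5534 cases under the 6 settings and 3979 to 5511 without single libraries, and windows chosen in the DDT lineage in 3710 to 4310 and 2230 to 4482. Over the same fits the share of all tested windows called lower ranged from 9.64% to 21.6% in the DDT lineage and from 4.14% to 23.1% in the control lineage. By the authors' deposited adjusted p, 0 of 2477 members passed in sperm, and 0 of the 2183 with a value passed in morulae. Of all windows 28 and 2 passed. In the crossed comparisons 4444 of 5803 and 4130 of 5132 windows passed lower. Of all windows 523604 and 569708 passed there in either direction.

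Libraries of different groups share replicate numbers, and the main tests did not pair them. Deviations of same-numbered libraries correlated at -0.22 to 0.06 in the sperm comparison and -0.01 to 0.00 in morulae. In the control lineage they correlated at 0.01 to 0.04 and in the DDT lineage at 0.01 to 0.03. Of the 6 libraries 2, 1, 5 and 5 correlated best with their own number. These values do not settle whether morulae and sperm of a lineage are paired. With a replicate block edgeR called 0 members in sperm and 0 in morulae. It called 5534 windows lower in the DDT lineage and 4310 in the control lineage, against 21.6% and 10.9% of all tested windows. The relation of members to CpG content, genes and the gene lists was planned with 4 alternatives and not run. Depth limits morulae most, where a member held a median of 7 to 16 counts per library.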
